A study of Mus musculus with 18 samples.

Results

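The 38 genes described here carry long-chain fatty acids from the circulation to the mitochondrial electron transport chain in mouse cardiomyocytes. They were taken from a list of named genes, matched to the deposited Ensembl identifiers by symbol, and all 38 of 38 were found among the 12048 listed genes. No measured value was used in the match, but the list was chosen with earlier results of these data known. Counts of members called are therefore set beside the share of all genes as a description only. They were ordered by step, as uptake (5 genes), activation (1), the carnitine shuttle (6), acyl-CoA dehydrogenases (4), later steps of the beta-oxidation spiral (5), enzymes for unsaturated acids (3), electron transfer (3), the peroxisome (2), acyl-CoA thioesterases (3), malonyl-CoA turnover (2) and the lipid store (4).

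The study measured RNA of cardiomyocytes sorted by flow cytometry from hearts of Mlc2vcre:R26REYFP mice, 18 libraries in 6 groups of 3. The groups were mononucleated (1N) and binucleated (2N) cells before birth at E18.5 (days of embryonic life), at postnatal day 7 (P7) and in the adult, whose age the sources used here do not state. Every group carried the same 2 alleles. In this cross Cre is driven from the Mlc2v locus, which encodes the ventricular myosin light chain, and switches on a yellow fluorescent reporter at the Rosa26 locus. The sources used here do not state how the sorter read nuclear number, whether animals were pooled or whether the 3 replicates were separate animals. The p-values then measure only the spread of these libraries, which may be technical.

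The heart takes up long-chain acids released by lipoprotein lipase, binds them to coenzyme A, passes them through the mitochondrial membranes as carnitine esters, and shortens them by repeated rounds of dehydrogenation, hydration, a second dehydrogenation and thiolysis. The fetal heart is known to burn mostly glucose and lactate, and the switch to fatty acids after birth accompanies the arrival of milk fat and oxygen. Binucleation of mouse cardiomyocytes takes place in the same postnatal window, when most of these cells stop dividing.

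The recovered counts summed to between 14833334 and 22690952 per library. Levels are given as CPM, the recovered count in 1000000 counts of the effective library size that the deposited scaling implies. Log2 fold changes come from limma fitted to all 18 libraries and all genes and carry the standard error (SE), with Benjamini-Hochberg adjustment over the 12048 genes and a threshold of 0.05. A gene is called higher or lower only past that threshold. Of 12 cardiomyocyte markers 11 were listed, and they summed to between 34390 and 63770 CPM. Fibroblast markers (10 of 12 listed) summed to between 49.5 and 970.6 CPM, endothelial markers (13 of 13) to between 21.72 and 181.7 CPM, and leukocyte markers (7 of 10) to between 2.481 and 39.38 CPM. Pericyte and smooth muscle markers (7 of 8 listed) summed to between 787.9 and 1681 CPM. Laptm5, C1qb, C1qc and the pericyte marker Pdgfrb were at 0 in all E18.5 1N libraries. The pericyte and smooth muscle sum was still 1418 to 1523 CPM there, and which cells it came from was not tested. Laptm5 and C1qb were also at 0 in all P7 1N libraries, and C1qc in all P7 2N libraries.

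One library stood apart. E18.5 2N replicate 1, also the shallowest at 14833334 counts, differed from the other replicates of its group with a standard deviation over genes of 1.22 on the log2 scale, against 0.46 to 0.84 for the other 17 libraries. Its difference followed transcript length. Over the 38 members the Spearman correlation of that difference with length was -0.704, a description over genes of 1 library. The 24 members with transcripts under 2500 bases lay a median of 0.19 above the other replicates on the log2 scale, and the 14 longer ones lay 0.56 below. Other libraries differed from their fellow replicates with length as well: over the members the correlation was 0.682 in P7 1N replicate 1, -0.625 in P7 1N replicate 3 and 0.506 in adult 1N replicate 1. Their short and long members lay closer together, at -0.18 and 0.02 in P7 1N replicate 1 and at 0.10 and -0.05 in replicate 3. The part of this in the P7 class differences was not tested.

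**Figure D1:**
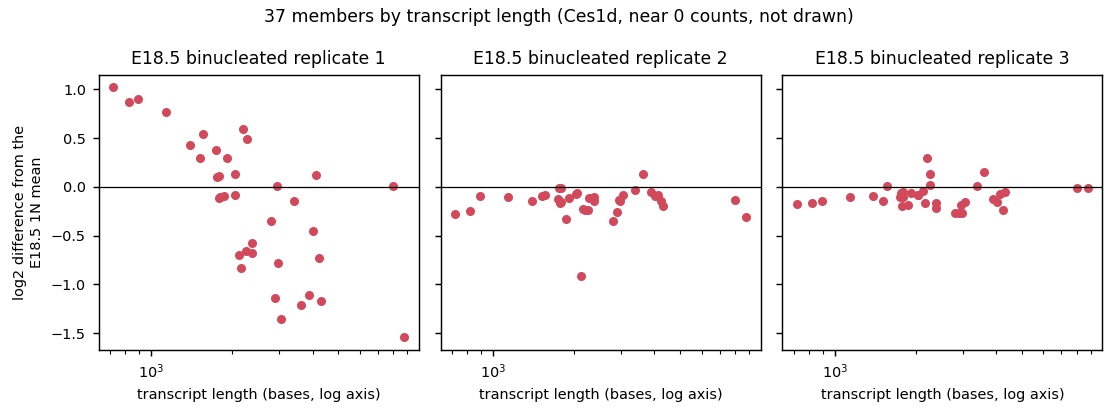
Each point is 1 of 37 members (Ces1d, at 0 to 13 counts, is not drawn), placed by transcript length in bases on a log axis and by its log2 difference from the E18.5 1N mean, with 1 panel per E18.5 2N replicate. In replicate 1 the points slope down with length, while in replicates 2 and 3 they lie in a narrow band close to and mostly below 0, except Mlycd in replicate 2.

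The 38 genes together stood higher at each age in both nuclear classes. Their summed level was 13310 to 14200 CPM in E18.5 1N libraries and 12770 to 15320 CPM in E18.5 2N libraries. At P7 it was 22510 to 24910 CPM in 1N and 27810 to 30300 CPM in 2N cells, and in the adult 40430 to 44630 CPM in 1N and 43160 to 45000 CPM in 2N cells. They held 1.5 to 1.62% of all counts at E18.5, 2.48 to 3.04% at P7 and 3.52 to 3.83% in the adult. The age groups did not overlap in either class. In a bulk sample, fewer cells of a type and less RNA per cell cannot be told apart.

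Adult 1N cells had 36 of 38 members called higher and 0 called lower than E18.5 1N cells, where 26.2% of all listed genes were called higher and 27.7% lower. The median log2 fold change was 1.58, against -0.01 over all genes. In 2N cells 36 were again higher and 0 lower, with a median of 1.95 and 28.3% of all genes called higher and 29.4% lower. Higher in both classes were 35 members, against 21.9% of all genes. The 3 exceptions were Cpt1a, called in neither class, Cpt1b, called in 2N only, and Acot13, called in 1N only. Under quantile normalization the medians were 0.96 in 1N and 1.42 in 2N cells, and under scaling by total counts 1.19 and 1.54.

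The first postnatal week held a large share of this rise. At P7 29 members were called higher than at E18.5 in 1N cells (10.7% of all genes; median 0.83) and 35 in 2N cells (18.2%; median 1.32), and 0 lower in either class (7.84% of all genes in 1N and 17.7% in 2N cells). All 29 were also called in 2N cells. Between P7 and the adult, 28 members were called higher and 2 lower in 1N cells (19.1% and 22.3% of all genes; median 0.66). In 2N cells 20 were higher and 2 lower (17.3% and 19.7%; median 0.39). The 2 that fell were Acot1 and Cpt1a, in both classes. This second step depended on the scaling: quantile normalization left 14 higher and 3 lower in 1N and 10 and 4 in 2N cells, and scaling by total counts 18 and 2, and 14 and 3. The medians of 0.66 and 0.39 became 0.17 and 0.05 under quantile normalization and 0.35 and 0.17 under total-count scaling. Total-count scaling moved the median of all genes by -0.31 and -0.22 in these 2 comparisons, and by -0.39 and -0.41 in adult against E18.5, where 33 members stayed higher in 1N and 32 in 2N cells. Shares of all genes called under either scaling were not counted, so it cannot be told whether these losses are particular to the members. Consecutive comparisons share the P7 libraries. In 24 members the 3 ages rose step by step without overlap between libraries in both classes, which 6.32% of all genes did. In 1N cells alone 30 did so (10.5%), and in 2N cells alone 24 (9.72%).

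Comparisons of 2N cells with E18.5 rest in part on E18.5 2N replicate 1. Without it the median change to P7 was 1.22, with 37 members called higher, and that to the adult 1.79, also with 37. Shares of all genes called without it were not counted for these comparisons. It therefore cannot be told whether the gained calls are particular to the members. The member that gained the call in the adult was Acot13, at 0.95 in place of 0.54 (limma adjusted p = 5.39e-06), and the members that gained it at P7 were Acot13, at 0.74, and Etfb, at 0.83. Eci1 went from 0.48 to 0.77 at P7 and was called either way. The adult change of Cpt1a went from 0.36 to 0.01, and neither was called. Among the members whose 2N change to the adult was smaller without the library, it was 1.71 for Acsl1, 2.25 for Slc22a5, 1.80 for Acacb, 2.58 for Lipe and 0.78 for Cpt1b, all 5 still called.

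Marker sums also moved with age. Cardiomyocyte markers summed to 34390 to 40500 CPM at E18.5 and 60750 to 63770 CPM in the adult, with 6 of 11 called higher in 1N and 8 in 2N cells. Erythroid markers (5 of 7 listed) summed to 38.5 to 67.3 CPM in E18.5 1N, 101.3 to 176.8 CPM in E18.5 2N and 0.05908 to 11.2 CPM in adult libraries, with 4 of 5 called lower in 1N and 5 in 2N cells. From E18.5 to P7 in 2N cells 9 of 10 fibroblast, 12 of 13 endothelial and 6 of 7 leukocyte markers were called lower, while in 1N cells 3, 1 and 0 were. From E18.5 to the adult 12 of 13 endothelial and 7 of 7 leukocyte markers were called higher in 1N cells, and 1 of each list in 2N cells. The part of other cells in the age changes of the 38 genes was not tested.

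**Figure D2:**
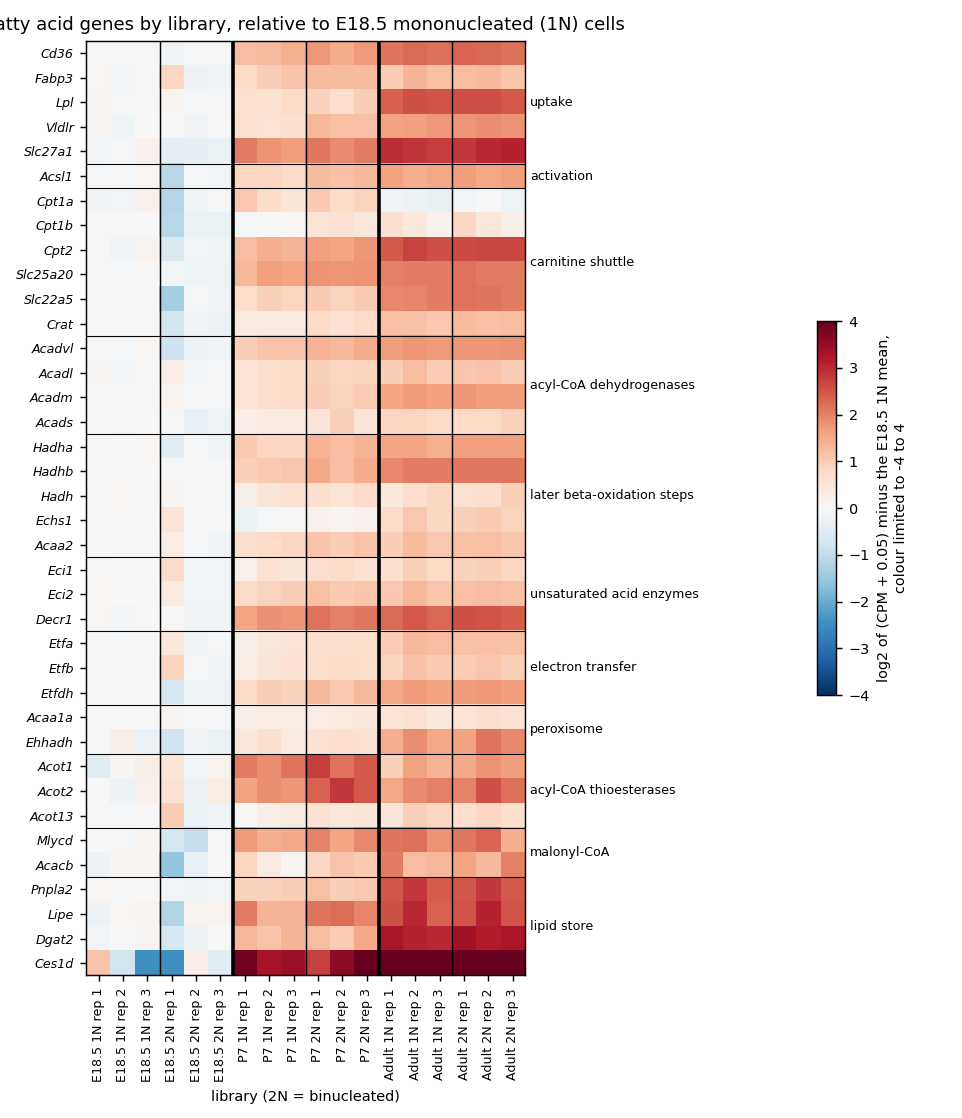
Rows are the 38 members ordered by step, columns the 18 libraries, and colour gives log2 of (CPM + 0.05) minus the mean of the 3 E18.5 1N libraries, limited to -4 to 4. Most members stand higher at P7 than at E18.5 and higher again in the adult in both classes, Cpt1a and Acot1 are highest at P7, and E18.5 2N replicate 1 shows both raised and lowered members beside its 2 fellow replicates.

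Uptake genes were the first group by step, and all 5 were called higher in the adult than at E18.5 in both classes. Their log2 fold changes ran from 1.19 to 2.87 in 1N and from 1.06 to 3.29 in 2N cells. Slc27a1 encodes FATP1, a transport protein of the plasma membrane that also activates the acids it brings in. The E18.5 level of Slc27a1 was 47.4, 47.8 and 57.9 CPM in 1N and 40.1, 40.05 and 42.3 CPM in 2N libraries. P7 libraries gave 217, 176 and 164 CPM in 1N and 219, 188 and 211 CPM in 2N cells. In the adult there were 394, 374 and 351 CPM in 1N and 364, 412 and 429 CPM in 2N cells. Every adult library was above every P7 library, and every P7 library above every E18.5 library. The adult excess over E18.5 was 2.87 ± 0.12 (SE) in 1N (limma adjusted p = 1.93e-11) and 3.29 ± 0.12 (SE) in 2N cells (adjusted p = 2.98e-12).

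Lpl, which encodes lipoprotein lipase, had the second highest adult level of the 38 members per transcript length, with means of 1569 CPM per kilobase in 1N and 1613 in 2N cells. Only Fabp3, the cytosolic fatty acid carrier of heart and muscle, was higher, at 2544 and 2579 CPM per kilobase. Fabp3 shares 29.2% of its 50-base words with the pseudogene Fabp3-ps1, so part of its count is uncertain. Most of the Lpl rise came after P7: its log2 fold change was 0.66 ± 0.11 (SE) from E18.5 to P7 and 1.83 ± 0.11 (SE) from P7 to the adult in 1N cells (limma adjusted p = 0.000456 and 2.94e-09). Fabp3 was called higher at P7 than at E18.5 in both classes, while its adult-to-P7 changes of 0.23 ± 0.21 (SE) and -0.05 ± 0.21 (SE) missed the threshold. Cd36, the main scavenger receptor for long-chain acids in heart, rose at both steps and in both classes, by 2.20 ± 0.10 (SE) and 2.33 ± 0.10 (SE) from E18.5 to the adult.

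Vldlr, a receptor for triglyceride-rich lipoproteins, was the member with a difference between nuclear classes. Vldlr was at 158, 130.2 and 148 CPM in E18.5 1N cells and 146, 133 and 144 CPM in E18.5 2N cells. One week after birth it was at 222, 212 and 226 CPM in 1N and 363, 334 and 327 CPM in 2N cells. Adult 1N libraries had 446, 449 and 479.7 CPM and adult 2N libraries 496, 525 and 510.0 CPM. At P7 all 3 binucleated libraries lay above all 3 mononucleated ones, at E18.5 the classes overlapped, and in the adult the 2N libraries were again the higher without overlap, by less. The P7 difference was 0.63 ± 0.09 (SE) on the log2 scale, a 1.55-fold excess in 2N cells with a limma adjusted p of 0.000947. It was called under every one of the 30 alternatives, with adjusted p between 1.18e-06 and 0.00894.

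Activation was represented by Acsl1, the main acyl-CoA synthetase of heart. For Acsl1 the E18.5 libraries gave 709.6, 698 and 777 CPM in 1N and 337, 703 and 668 CPM in 2N cells. The P7 values were 1322, 1321 and 1241 CPM in 1N and 1750, 1629 and 1781 CPM in 2N cells. The adult values were 2206, 1997 and 2114 CPM in 1N and 2300, 2116 and 2294 CPM in 2N cells. The E18.5 2N value of replicate 1 was the lowest of the 18, and the age groups did not overlap in either class. From E18.5 to the adult the log2 fold change was 1.53 ± 0.19 (SE) in 1N and 2.05 ± 0.19 (SE) in 2N cells (limma adjusted p = 4.69e-06 and 1.44e-07). The P7-to-adult part was called in 1N cells and not in 2N cells (adjusted p = 0.0076 and 0.138).

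The carnitine shuttle moves activated acids across the mitochondrial membranes, and 4 of its 6 genes were called higher in adult than in E18.5 1N cells and 5 in 2N cells. Cpt2, the inner-membrane carnitine palmitoyltransferase, had the largest change of the step. Cpt2 stood at 150.2, 128 and 159.6 CPM in the E18.5 1N libraries and at 98, 136 and 130.5 CPM in the E18.5 2N libraries. At P7 the values were 345, 400.1 and 376 CPM in 1N and 460.0, 439 and 494 CPM in 2N cells. Adult libraries held 809, 952 and 879 CPM in 1N and 890.0, 938 and 939 CPM in 2N cells. No library of one age overlapped another. The adult excess over E18.5 was 2.59 ± 0.13 (SE) in 1N and 2.94 ± 0.13 (SE) in 2N cells (limma adjusted p = 8.27e-11 and 1.35e-11). Slc25a20, the translocase that exchanges acylcarnitine for carnitine, rose by 2.03 ± 0.09 (SE) and 2.27 ± 0.09 (SE), and Slc22a5, the plasma membrane carnitine carrier OCTN2, by 1.97 ± 0.23 (SE) and 2.66 ± 0.23 (SE). Of the 50-base words of Slc22a5, 26.3% also occur in another gene, nearly all in Slc22a21.

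Cpt1a, the liver-type isoform of the rate-limiting outer-membrane transferase, followed another course. The E18.5 level of Cpt1a was 88.1, 89.1 and 111 CPM in 1N and 42.6, 84 and 92.7 CPM in 2N libraries. P7 libraries gave 204, 160.5 and 134 CPM in 1N and 197, 159 and 180.0 CPM in 2N cells. In the adult there were 84.8, 81.6 and 78 CPM in 1N and 88.3, 94.9 and 84.1 CPM in 2N cells. All 6 P7 libraries lay above all adult libraries and above all E18.5 libraries. It rose from E18.5 to P7 by 0.78 ± 0.22 (SE) in 1N and 1.36 ± 0.22 (SE) in 2N cells (limma adjusted p = 0.0224 and 0.000223, the first lost under total-count scaling at 0.0625), then fell by 1.01 in 1N and by 1.00 in 2N cells on the log2 scale (SE 0.22 each, adjusted p = 0.00181 and 0.00214). Adult and E18.5 levels were not called different in either class (adjusted p = 0.406 and 0.179). Under total-count scaling the 1N difference was called, at -0.62 on the log2 scale (adjusted p = 0.0406).

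Cpt1b, the muscle isoform that is known to carry most of this activity in the adult heart, was the member with the lowest adult level per transcript length, with a mean of 0.81 CPM per kilobase in 1N cells. Cpt1b was at 1.79, 1.72 and 1.72 CPM in E18.5 1N cells and 0.764, 1.45 and 1.44 CPM in E18.5 2N cells. One week after birth it was at 1.69, 1.72 and 1.86 CPM in 1N and 2.57, 2.6 and 2.42 CPM in 2N cells. Adult 1N libraries had 2.74, 2.35 and 1.96 CPM and adult 2N libraries 3.13, 2.4 and 2.07 CPM. The counts behind these values were 12 to 53 per library. Of its exon bases 81.4% lie on the same strand as the read-through gene Gm44502, and 78.6% of its 50-base words occur in that gene too, so reads of Cpt1b that match both genes could have been left uncounted, and its level is uncertain. Per Cpt1b count there were 49.1 to 64.9 Cpt1a counts at E18.5, 61.1 to 120 at P7 and 28.2 to 40.7 in the adult, so the adult ratios lay below all earlier ones. In 2N cells Cpt1b was called higher in the adult than at E18.5, by 1.08 ± 0.31 (SE) (limma adjusted p = 0.00669).

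Crat, the matrix carnitine acetyltransferase that buffers acetyl-CoA, closed the shuttle. For Crat the E18.5 libraries gave 701, 665 and 720.3 CPM in 1N and 418, 628 and 592 CPM in 2N cells. The P7 values were 899, 886 and 884 CPM in 1N and 1175, 1048 and 1200 CPM in 2N cells. The adult values were 1598, 1562 and 1471 CPM in 1N and 1656, 1597 and 1623 CPM in 2N cells. The 3 P7 2N libraries lay above the 3 P7 1N libraries, and at E18.5 the order was the opposite, again with no overlap. The adult excess over E18.5 was 1.15 ± 0.12 (SE) in 1N and 1.60 ± 0.12 (SE) in 2N cells (limma adjusted p = 8.79e-07 and 1.51e-08).

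All 4 acyl-CoA dehydrogenases, which take the first pair of electrons from acids of different chain length, were called higher in the adult than at E18.5 in both classes. Acadvl, the very long-chain enzyme, changed the most. Acadvl stood at 411, 383 and 427 CPM in the E18.5 1N libraries and at 228, 348 and 362 CPM in the E18.5 2N libraries. At P7 the values were 804, 903 and 903 CPM in 1N and 1070, 1009 and 1140 CPM in 2N cells. Adult libraries held 1283, 1391 and 1334 CPM in 1N and 1376, 1398 and 1406 CPM in 2N cells. All 3 ages were separate in both classes. Its log2 fold change from E18.5 to the adult was 1.72 ± 0.14 (SE) in 1N and 2.19 ± 0.14 (SE) in 2N cells (limma adjusted p = 2.76e-08 and 1.22e-09). Acadvl overlaps Dvl2 on the opposite strand over 42.9% of its exon bases, and Dvl2 was at 3.7 to 22 CPM. The medium-chain enzyme Acadm rose by 1.64 ± 0.10 (SE) and 1.71 ± 0.10 (SE), the long-chain enzyme Acadl by 1.08 ± 0.12 (SE) and 1.05 ± 0.12 (SE), and the short-chain enzyme Acads by 0.82 ± 0.11 (SE) and 1.04 ± 0.11 (SE).

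Later steps of the spiral were called higher in all 5 genes and in both classes. Hadha and Hadhb encode the subunits of the mitochondrial trifunctional protein, which hydrates, oxidises and cleaves long-chain intermediates. The E18.5 level of Hadhb was 725, 666 and 715 CPM in 1N and 662, 672 and 661 CPM in 2N libraries. P7 libraries gave 1350, 1465 and 1509 CPM in 1N and 1987, 1645 and 1959 CPM in 2N cells. In the adult there were 2678, 2930 and 2881 CPM in 1N and 3023, 3024 and 3060 CPM in 2N cells. The Hadhb libraries of the 3 ages were separate in both classes, and 2N lay above 1N at P7 and in the adult. Hadha was at 518, 540.4 and 579 CPM in E18.5 1N cells and 399.8, 512 and 490.0 CPM in E18.5 2N cells. One week after birth it was at 1133, 976 and 964 CPM in 1N and 1420, 1292 and 1400 CPM in 2N cells. Adult 1N libraries had 1625, 1619 and 1467 CPM and adult 2N libraries 1685, 1691 and 1688 CPM. Hadha showed the same order, and at E18.5 its 2N libraries lay below the 1N libraries. Under quantile normalization the change of Hadha from P7 to the adult was -0.0038 in 1N and -0.088 in 2N cells. From E18.5 to the adult Hadhb rose by 2.01 ± 0.10 (SE) in 1N and 2.19 ± 0.10 (SE) in 2N cells, and Hadha by 1.52 ± 0.11 (SE) and 1.86 ± 0.11 (SE), with limma adjusted p of at most 5.83e-09. Hadhb shares 19.7% of its 50-base words with other genes, most of them with Gm13910.

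Hadh, the short-chain hydroxyacyl-CoA dehydrogenase, had the smallest change of the 5, 0.65 ± 0.13 (SE) in 1N and 0.73 ± 0.13 (SE) in 2N cells. Echs1, the short-chain hydratase, was called after P7 and not before. Its changes from E18.5 to P7 were -0.11 ± 0.14 and 0.00 ± 0.14 (SE, limma adjusted p = 0.67 and 1.0), and from P7 to the adult 0.99 ± 0.14 (SE) in 1N and 0.81 ± 0.14 (SE) in 2N cells (adjusted p = 3.16e-05 and 0.000259). Acaa2, the mitochondrial thiolase, was called at P7 in both classes, by 0.76 ± 0.12 (SE) and 1.07 ± 0.12 (SE), and after P7 in 1N cells only, by 0.34 ± 0.12 (SE) (adjusted p = 0.0314). That last change turned to -0.26 under quantile normalization.

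Enzymes that prepare unsaturated acids for oxidation were all 3 called higher in the adult. Decr1, the mitochondrial dienoyl-CoA reductase, led. For Decr1 the E18.5 libraries gave 153, 136 and 149 CPM in 1N and 147, 133 and 129 CPM in 2N cells. The P7 values were 439.7, 515 and 501 CPM in 1N and 653, 586 and 625 CPM in 2N cells. The adult values were 703, 797 and 722 CPM in 1N and 848, 843 and 775 CPM in 2N cells. The ages were separate in both classes, and at P7 all 2N libraries were above all 1N libraries. Its adult excess over E18.5 was 2.34 ± 0.10 (SE) in 1N and 2.59 ± 0.10 (SE) in 2N cells (limma adjusted p = 1.92e-11 and 4.04e-12). The isomerases Eci1 and Eci2 rose by less, from 0.71 ± 0.18 (SE) for Eci1 in 2N to 1.17 ± 0.13 (SE) for Eci2 in 1N cells.

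Electron transfer from the dehydrogenases runs through the flavoprotein encoded by Etfa and Etfb to its dehydrogenase, encoded by Etfdh, which passes the electrons to ubiquinone. All 3 were called higher in the adult than at E18.5 in both classes. Etfdh stood at 645, 601 and 641 CPM in the E18.5 1N libraries and at 393, 569 and 543 CPM in the E18.5 2N libraries. At P7 the values were 1075, 1234 and 1192 CPM in 1N and 1531, 1324 and 1534 CPM in 2N cells. Adult libraries held 1821, 2068 and 1931 CPM in 1N and 2062, 2087 and 2021 CPM in 2N cells. No 2 ages overlapped. Etfdh rose by 1.62 ± 0.13 (SE) in 1N and 2.05 ± 0.13 (SE) in 2N cells (limma adjusted p = 1.75e-08 and 8.37e-10). Etfa rose by 1.18 ± 0.13 (SE) and 1.12 ± 0.13 (SE) and Etfb by 1.03 ± 0.20 (SE) and 0.81 ± 0.20 (SE), but 44.8% of the 50-base words of Etfb also occur in another gene, mostly Gm45233.

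Both peroxisomal genes were called higher in the adult than at E18.5. Ehhadh encodes the peroxisomal bifunctional enzyme. The E18.5 level of Ehhadh was 16.6, 20.3 and 14.5 CPM in 1N and 9.93, 15.5 and 14.2 CPM in 2N libraries. P7 libraries gave 23.4, 26.8 and 22.2 CPM in 1N and 26.3, 27.4 and 26 CPM in 2N cells. In the adult there were 46.9, 62.6 and 50.3 CPM in 1N and 52.5, 75.9 and 64.5 CPM in 2N cells. Adult libraries lay above all earlier ones. The change was 1.64 ± 0.19 (SE) in 1N and 2.29 ± 0.19 (SE) in 2N cells (limma adjusted p = 2.08e-06 and 3.41e-08). Acaa1a, a peroxisomal thiolase, rose by 0.53 ± 0.09 (SE) and 0.58 ± 0.09 (SE), and shares 12.9% of its 50-base words with other genes, nearly all with Acaa1b.

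Acyl-CoA thioesterases release the free acid from coenzyme A. Acot2 acts in the mitochondrial matrix and its neighbour Acot1 in the cytosol, and the pair share 50-base words (24.5% of those of Acot2 occur in Acot1), so reads may have been split between them. Acot2 was at 24.3, 20.04 and 27.1 CPM in E18.5 1N cells and 36, 20.2 and 29.3 CPM in E18.5 2N cells. One week after birth it was at 73.5, 86.2 and 81.9 CPM in 1N and 124, 168 and 132 CPM in 2N cells. Adult 1N libraries had 70.4, 88.6 and 97.4 CPM and adult 2N libraries 95.3, 141 and 111 CPM. P7 and adult libraries overlapped, and both were above E18.5. From E18.5 to P7 the rise was 1.77 ± 0.21 (SE) in 1N and 2.34 ± 0.21 (SE) in 2N cells (limma adjusted p = 1.58e-05 and 4.38e-07), and from P7 to the adult no change was called. Acot1 rose by 2.06 ± 0.21 (SE) and 2.31 ± 0.21 (SE) to P7 and then fell by 0.72 in 1N and by 0.80 in 2N cells (SE 0.21 each, adjusted p = 0.0122 and 0.00695). Acot13 was called higher in the adult than at E18.5 in 1N cells only, by 0.75 ± 0.24 (SE) (adjusted p = 0.0149), with 0.54 ± 0.24 (SE) in 2N cells (adjusted p = 0.0679; called without E18.5 2N replicate 1, as given above), and that difference between classes was not tested.

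Malonyl-CoA blocks the outer carnitine transferase. Acacb makes it at the mitochondrial surface and Mlycd, malonyl-CoA decarboxylase, removes it. For Mlycd the E18.5 libraries gave 78.3, 75.2 and 86.3 CPM in 1N and 49.1, 42.4 and 77.7 CPM in 2N cells. The P7 values were 259.7, 218 and 229 CPM in 1N and 317, 239 and 305 CPM in 2N cells. The adult values were 355, 372 and 280.4 CPM in 1N and 345, 405 and 219 CPM in 2N cells. P7 libraries were above E18.5 libraries in both classes, and P7 and adult libraries overlapped in 2N cells. From E18.5 to the adult Mlycd rose by 2.06 ± 0.23 (SE) in 1N and 2.52 ± 0.23 (SE) in 2N cells (limma adjusted p = 1.01e-06 and 7.89e-08). Acacb, the opposing enzyme, rose too, by 1.54 ± 0.32 (SE) and 2.25 ± 0.32 (SE) (adjusted p = 0.000777 and 1.75e-05).

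The lipid store held the largest change of the 38. Ces1d encodes a carboxylesterase that hydrolyses triglyceride. Ces1d stood at 0.555, 0.115 and 0 CPM in the E18.5 1N libraries and at 0, 0.275 and 0.156 CPM in the E18.5 2N libraries. At P7 the values were 3.95, 2.66 and 2.85 CPM in 1N and 1.77, 3.23 and 4.96 CPM in 2N cells. Adult libraries held 439, 445 and 421 CPM in 1N and 399, 468 and 503 CPM in 2N cells. In counts it rose from 16 over the 3 E18.5 1N libraries to 197 at P7 and 21310 in the adult, and from 11 to 175 and 22532 in 2N cells. Per effective library size, adult 1N cells held 1950 times the E18.5 count (exact 95% counting interval 1200 to 3410) and adult 2N cells 2770 times (1550 to 5560), and these intervals cover counting error only. Most of it came after P7, 136-fold (118 to 157) in 1N and 140-fold (121 to 163) in 2N cells. Endothelial marker sums also rose after P7, from 21.72 to 37.56 CPM to 126.3 to 181.7 CPM, and 12 of 13 were called higher in each class. Of the adipocyte markers only Pparg and Fabp4 of 8 were listed, and their sum rose from 5.071 to 6.773 CPM to 31.5 to 66.84 CPM. Fabp4 is in both lists, so these sums are not separate. It made up most of the adipocyte sum, with adult means of 40.78 CPM in 1N and 48.14 CPM in 2N cells, against 5.66 and 6.71 CPM for Pparg. The part of other cells in the Ces1d level was not tested.

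Dgat2, which makes triglyceride, rose by 3.13 ± 0.16 (SE) in 1N and 3.55 ± 0.16 (SE) in 2N cells. Pnpla2, the adipose triglyceride lipase, rose by 2.58 ± 0.12 (SE) and 2.72 ± 0.12 (SE), and Lipe, the hormone-sensitive lipase, by 2.67 ± 0.32 (SE) and 3.03 ± 0.32 (SE). All 3 had limma adjusted p under the threshold in both classes, the highest being 2.67e-06 for Lipe in 1N cells. Dgat2 builds the store and the others break it down, and both kinds were among the genes called higher.

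**Figure D3:**
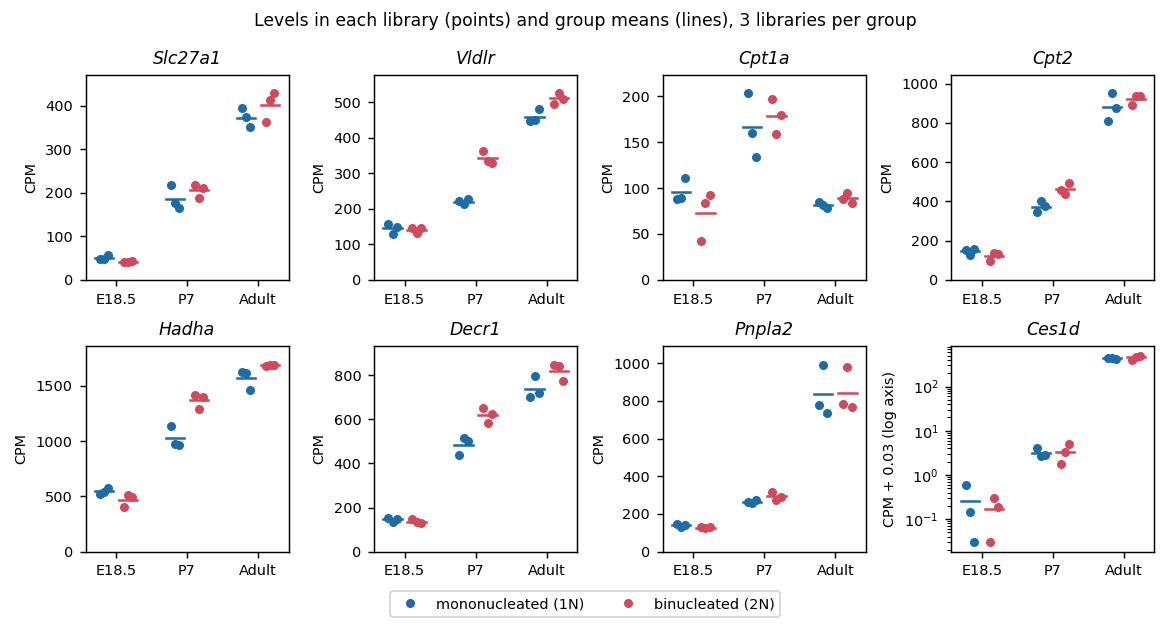
Points give the CPM of each library and lines the mean of 3, by age and nuclear class, for 8 members; the Ces1d panel has a log axis of CPM + 0.03. Slc27a1, Cpt2, Hadha and Decr1 climb at each age, Cpt1a peaks at P7, Pnpla2 and Ces1d climb mainly after P7, and Vldlr shows the P7 2N points at 327.4 to 363 CPM above the 1N points at 212.1 to 226.2 CPM.

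The second question of the design was how binucleated cells differ from mononucleated cells of the same age. At E18.5 0 of 38 members were called, with 0.739% of all genes called higher and 0.0664% lower in 2N cells, and 9 members had an unadjusted p under 0.05 (13.9% of all genes). The median log2 fold change was -0.09, and -0.15 under quantile normalization. The 2N mean was the higher in 13 members, against 49.4% of all genes, and the lower in 25, and in 10 of these the groups did not overlap (7.1% of all genes). Without E18.5 2N replicate 1, 34 members had the lower 2N mean and 19 did not overlap (15.3% of all genes), and still 0 were called.

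Marker levels also differed between the E18.5 classes. Fibroblast markers summed to 350.5 to 970.6 CPM in 2N and 67.02 to 118.8 CPM in 1N libraries, with 7 of 10 called higher. Endothelial markers summed to 132.3 to 150.4 against 25.9 to 42.02 CPM (7 of 13 higher), and leukocyte markers to 14.39 to 39.38 against 2.524 to 3.289 CPM (5 of 7 higher). Cardiomyocyte markers overlapped, at 34390 to 36280 against 35190 to 40500 CPM, with 0 of 11 called. The part of these other cells in the E18.5 differences was not tested.

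At P7 binucleated cells had the higher mean in 36 of 38 members, against 53.7% of all genes, with a median log2 fold change of 0.30. That median was 0.13 under quantile normalization, and 0.19 under total-count scaling, which moved the median of all genes by -0.11. In 24 members the 2N libraries all lay above the 1N libraries, as in 9.84% of all genes. One member, Vldlr, was called higher and 0 lower, where 0.0664% of all genes were called higher and 2.06% lower, and 15 members had an unadjusted p under 0.05 (10% of all genes). The next smallest adjusted p were 0.0526 for Hadha, at 0.42 ± 0.11 (SE), 0.0606 for Hadhb, at 0.37 ± 0.10 (SE), and 0.0618 for Acot2, at 0.80 ± 0.21 (SE) (limma). The only members with a lower 2N mean were Dgat2 and Ces1d, by 0.02 and 0.03 on the log2 scale.

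The number called at P7 moved with E18.5 2N replicate 1, a library in neither of the groups compared, since all 18 libraries share 1 estimate of the spread. Without that library 13 members were called higher in P7 2N cells (0.822% of all genes), with the same fold changes: Acaa2, Acadm, Acadvl, Acot2, Acsl1, Cd36, Crat, Decr1, Etfdh, Hadha, Hadhb, Slc25a20 and Vldlr. With array weights, which gave that library a weight of 0.049, 26 were called (3.64% of all genes). Without E18.5 2N replicate 2 the count was 3, and without P7 1N replicate 1 or P7 2N replicate 2 it was 2. Cardiomyocyte markers stood higher as well: they summed to 54080 to 60580 CPM in P7 2N and 44700 to 47830 CPM in P7 1N libraries, although 0 of 11 were called. Fibroblast markers summed to 49.5 to 65.81 against 74.1 to 172.8 CPM and leukocyte markers to 2.481 to 4.789 against 15.19 to 25.89 CPM. Their part in the P7 differences was not tested.

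In the adult most differences were small. They ran from -0.09 to 0.43 on the log2 scale, the highest among the acyl-CoA thioesterases, whose median was 0.35. None of the 38 members was called by limma (0.0083% of all genes were called higher and 0.083% lower), 0 had an unadjusted p under 0.05 (2.5% of all genes), and the median log2 fold change was 0.08, or 0.05 under quantile normalization. The 2N mean was the higher in 35 members, against 51.2% of all genes, and in 5 the groups did not overlap (2.51%). The 95% intervals bound these differences without showing that there is none: that of Cd36 ran from -0.14 to 0.29, that of Hadha from -0.12 to 0.33, and that of Cpt2 from -0.20 to 0.34 on the log2 scale. These are not the members with the largest adult differences.

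**Figure D4:**
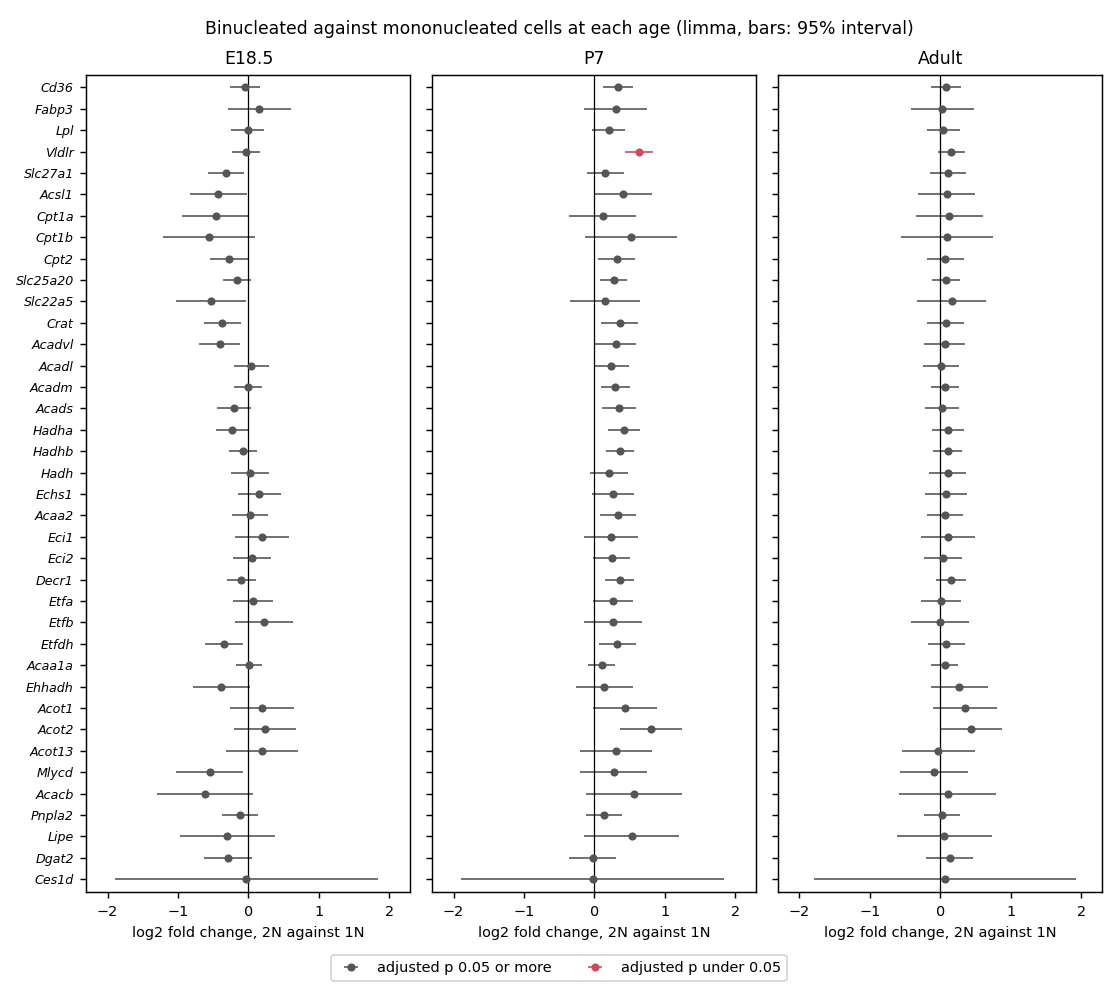
For each member, the point is the log2 fold change of 2N against 1N cells and the bar its 95% interval from limma, in 1 panel per age. The points lie on both sides of 0 at E18.5, mostly to the right of 0 at P7, where Vldlr alone is called, and mostly close to 0 in the adult.

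Whether the class difference itself changed with age was tested as an interaction. From E18.5 to P7 it moved upward in all 38 members, against 50.2% of all genes, with a median of 0.44 on the log2 scale, and 17 members had an unadjusted p under 0.05 (14.7% of all genes). Called were 3: Vldlr at 0.67 ± 0.13 (SE) (limma adjusted p = 0.0119), Hadha at 0.65 ± 0.15 (SE) (adjusted p = 0.0321) and Crat at 0.73 ± 0.18 (SE) (adjusted p = 0.0389), where 0.232% of all genes were called higher and 2.1% lower. With the replicate block at P7 and in adults, Vldlr alone was called, and Hadha and Crat had adjusted p of 0.0836 and 0.116. Without E18.5 2N replicate 1, 12 members were called (1.05% of all genes), with 37 of 38 above 0 and a median of 0.42. Crat and Hadha then stood at 0.55 each. With array weights 20 were called (3.1%).

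Other single libraries moved this count as well. It was 1 without any of the 3 E18.5 1N replicates, without P7 1N replicate 2 or 3 or without any of the 3 P7 2N replicates, and it was 6 without E18.5 2N replicate 2 and 5 without replicate 3. From P7 to the adult the class difference moved downward in 33 of 38 members (45.7% of all genes moved upward), with a median of -0.24, which was -0.07 under quantile normalization and -0.15 under total-count scaling. None was called by limma, where 0.208% of all genes were called higher and 0% lower, and 1 had an unadjusted p under 0.05 (4.71% of all genes). Vldlr had the largest such change by p, -0.48 ± 0.13 (SE, adjusted p = 0.203), and it was called without E18.5 2N replicate 1 and with array weights. Both interaction tests use the P7 libraries.

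Genes around the pathway were read from 4 lists, whose counts in adult against E18.5 stand beside the 26.2% of all genes called higher and 27.7% lower in 1N cells and the 28.3% and 29.4% in 2N cells. Of 23 regulators of fatty acid genes, all listed, 8 were called higher and 2 lower in adult than in E18.5 1N cells, and 11 and 2 in 2N cells, with medians of 0.50 and 0.53. Ppara encodes the fatty acid receptor that drives many of the 38 genes. The E18.5 level of Ppara was 39.9, 27.5 and 25.4 CPM in 1N and 32, 29.9 and 30.6 CPM in 2N libraries. P7 libraries gave 24.2, 32.9 and 26.6 CPM in 1N and 30.2, 43.4 and 38.1 CPM in 2N cells. In the adult there were 86, 61.5 and 52.5 CPM in 1N and 86, 73.1 and 53.4 CPM in 2N cells. Adult libraries lay above all others, and P7 and E18.5 overlapped. The adult excess over E18.5 was 1.11 ± 0.22 (SE) in 1N and 1.17 ± 0.22 (SE) in 2N cells (limma adjusted p = 0.000543 and 0.00029). Esrra, the estrogen-related receptor alpha, rose by 0.85 ± 0.13 (SE) and 1.12 ± 0.13 (SE). Ppargc1a, the coactivator of both, changed by 0.26 ± 0.15 (SE) in 1N (adjusted p = 0.141) and 0.53 ± 0.15 (SE) in 2N cells (adjusted p = 0.00571), and the 2N call was lost under total-count scaling (0.564), quantile normalization (0.681) and the fit on the 2 groups alone (0.0962). Without E18.5 2N replicate 1 the 2N change was 0.31 (adjusted p = 0.0078).

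Lpin1, which encodes lipin 1, a phosphatidate phosphatase and coactivator, rose by 3.14 ± 0.20 (SE) in 1N and 3.97 ± 0.20 (SE) in 2N cells. Klf15, a transcription factor of cardiac lipid genes, had its lowest values at P7. Klf15 was at 64.6, 57.5 and 70.4 CPM in E18.5 1N cells and 53.3, 54.4 and 57.5 CPM in E18.5 2N cells. One week after birth it was at 23.4, 19.7 and 23.2 CPM in 1N and 20.3, 24.9 and 33 CPM in 2N cells. Adult 1N libraries had 160.2, 227 and 168 CPM and adult 2N libraries 158, 230.5 and 191 CPM. P7 lay below E18.5 and the adult above both. The regulators that fell in both classes were Prkag2, a regulatory subunit of AMP-activated kinase, by 1.90 in 1N and 1.62 in 2N cells, and Nrf1, a regulator of nuclear genes of mitochondria, by 0.79 and 0.70 on the log2 scale (limma adjusted p up to 0.00656). Pparg was near the detection limit before adulthood, with 6 counts over 3 libraries in E18.5 1N, 24 in E18.5 2N, 6 in P7 1N and 13 in P7 2N cells, and 275 and 332 in adult 1N and 2N cells. Pparg is also 1 of the adipocyte markers, and the part of other cells in its level was not tested.

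Of 30 other fatty acid oxidation genes 29 were listed, and 25 were called higher and 2 lower in adult than in E18.5 1N cells, with 23 and 2 in 2N cells and medians of 1.02 and 1.44. Acad12, a member of the acyl-CoA dehydrogenase family, rose by 3.27 ± 0.14 (SE) and 3.48 ± 0.14 (SE), Scp2, a sterol carrier with peroxisomal thiolase activity, by 1.91 ± 0.10 (SE) and 2.08 ± 0.10 (SE), and Ech1, a dienoyl-CoA isomerase, by 3.06 ± 0.18 (SE) and 3.01 ± 0.18 (SE). The 2 that fell were peroxisomal: Slc25a17, a carrier of that membrane, fell by 0.52 and 0.82, and Decr2, the peroxisomal dienoyl-CoA reductase, by 0.67 and 0.32 on the log2 scale. Decr2 thus moved against its mitochondrial counterpart Decr1. The class difference of Decr2 changed between E18.5 and P7 by 0.68 ± 0.16 (SE) (limma adjusted p = 0.037), and this was lost with the replicate block at P7 and in the adult (adjusted p = 0.0914). For Decr2 the E18.5 libraries gave 75.8, 76.2 and 69.9 CPM in 1N and 52.9, 62.5 and 59.4 CPM in 2N cells. The P7 values were 59.9, 61.3 and 65.2 CPM in 1N and 79.5, 75.2 and 80.2 CPM in 2N cells. The adult values were 42.4, 53.2 and 44.3 CPM in 1N and 43.8, 44.8 and 50.9 CPM in 2N cells. The 2N libraries were below the 1N libraries at E18.5 and above them at P7, and the adult classes overlapped.

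Other uptake and activation genes were called in both directions, in shares close to those of all genes. Of 18 genes 16 were listed, with 5 called higher and 5 lower in adult than in E18.5 1N cells, and 4 and 5 in 2N cells, and medians of 0.04 and 0.15. Acsl3 and Acsl5, acyl-CoA synthetases like Acsl1, fell where Acsl1 rose. Acsl3 stood at 175, 208 and 219.9 CPM in the E18.5 1N libraries and at 117, 228 and 202 CPM in the E18.5 2N libraries. At P7 the values were 73.8, 89.7 and 69.1 CPM in 1N and 63, 69.5 and 59.8 CPM in 2N cells. Adult libraries held 16.7, 18 and 21.1 CPM in 1N and 13.8, 16.5 and 22.4 CPM in 2N cells. Every E18.5 library of Acsl3 lay above every P7 library, and these above the adult. The E18.5 level of Acsl5 was 42.9, 38.3 and 40.2 CPM in 1N and 36.9, 43.3 and 45.1 CPM in 2N libraries. P7 libraries gave 6.56, 11.3 and 7.74 CPM in 1N and 8.53, 11.5 and 7.89 CPM in 2N cells. In the adult there were 1.26, 0.691 and 1.9 CPM in 1N and 1.36, 1 and 3.22 CPM in 2N cells. Both fell at each step without overlap, Acsl3 by 3.43 in 1N and 3.35 in 2N cells and Acsl5 by 5.05 and 4.64 from E18.5 to the adult on the log2 scale (limma adjusted p up to 3.26e-08). Acsl6 rose from 8 counts over 3 E18.5 1N libraries to 140 at P7 and 1050 in the adult, and from 9 to 46 and 779 in 2N cells. Got2, an aminotransferase also described as a membrane fatty acid binding protein, rose by 0.66 ± 0.11 (SE) and 0.87 ± 0.11 (SE), which turned to -0.10 in 1N cells under quantile normalization, and Slc22a4, a relative of the carnitine carrier, by 2.51 ± 0.45 (SE) and 2.33 ± 0.45 (SE).

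Fabp4, Fabp5 and Gpihbp1, known from capillary endothelium and adipocytes, were the 3 genes of that list called higher in 2N cells at E18.5, and were chosen for naming after their values were seen. Fabp4 and Gpihbp1 are also endothelial markers in the sums given above. The log2 fold changes were 2.46 ± 0.38 (SE), 2.06 ± 0.44 (SE) and 2.46 ± 0.51 (SE) (limma adjusted p = 0.00332, 0.031 and 0.0286), and without E18.5 2N replicate 1 Fabp5 and Gpihbp1 missed the threshold (adjusted p = 0.0942 and 0.0694). The part of other cells in them was not tested.

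Of 25 other lipid store and thioesterase genes, all listed, 17 were called higher and 2 lower in adult than in E18.5 1N cells, and 16 and 3 in 2N cells, with medians of 1.27 and 1.54. Plin5, a coat protein that tethers lipid droplets to mitochondria, had the smallest adjusted p of the list. Plin5 was at 22.5, 14.8 and 20.4 CPM in E18.5 1N cells and 11.3, 7.82 and 15.1 CPM in E18.5 2N cells. One week after birth it was at 187, 191 and 211 CPM in 1N and 282, 248 and 301 CPM in 2N cells. Adult 1N libraries had 554, 582 and 495 CPM and adult 2N libraries 570.2, 614 and 593 CPM. All 3 ages were separate in both classes, and at P7 the 2N libraries were above the 1N libraries. The adult excess over E18.5 was 4.84 ± 0.19 (SE) in 1N and 5.75 ± 0.19 (SE) in 2N cells (limma adjusted p = 9.31e-12 and 1e-12), and its class difference changed from E18.5 to P7 by 1.27 ± 0.27 (SE) (adjusted p = 0.0198; 0.0698 with the replicate block at P7 and in the adult). Fitm2, a lipid droplet protein, rose by 3.34 ± 0.17 (SE) and 3.89 ± 0.17 (SE) and Gpam, the mitochondrial glycerol-phosphate acyltransferase, by 3.46 ± 0.21 (SE) and 3.99 ± 0.21 (SE). Among the genes of the list that fell were 2 of fatty acid synthesis. Fasn, the synthase, fell by 3.13 in 1N and 2.64 in 2N cells, and Acaca, the cytosolic acetyl-CoA carboxylase, by 2.13 and 2.00 on the log2 scale.

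Promoter sequence was read for the members as a feature that the choice of genes did not use. RefSeq windows of 300 bases (250 before and 50 after the start, build GRCm38.p6) were at hand for 30 members, 35 windows in all. The other 8 are Lpl, Cpt1b, Crat, Acaa2, Decr1, Acot13, Dgat2 and Ces1d. Both strands were searched. The extended half-site TCAAGGTCA of the estrogen-related receptors was in 0 of 35 windows, in 0.423% of all 32851 windows and in 0.257% of the windows of listed genes. The half-site AGGTCA, which also lies within that motif, was in 17.1% of member windows, 16.3% of all windows and 12.2% of those of listed genes. The GC box GGGCGG was in 68.6% of member windows, in 35.7% of all windows and in 63% of the windows of listed genes. 

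A direct repeat of AGGTCA with 1 free base between the copies, the form bound by PPAR and retinoid X receptor pairs, was exact in 0 member windows and in 0.0396% of all windows. With up to 2 mismatches it was in 4 of 35, or 11.4%, against 3.86% of all windows and 2.83% of those of listed genes, and 4 windows are too few to read a difference from. A match is a description of letters, not of binding. These 4 windows are shown because their genes, at uptake, shuttle, spiral and electron transfer, all rose from E18.5 to the adult; capitals mark the match, on the opposite strand in Cd36 and Etfa, and each runs 5′ to 3′ on the strand of its gene.
Cd36 (chr5:17835847-17836146, minus strand): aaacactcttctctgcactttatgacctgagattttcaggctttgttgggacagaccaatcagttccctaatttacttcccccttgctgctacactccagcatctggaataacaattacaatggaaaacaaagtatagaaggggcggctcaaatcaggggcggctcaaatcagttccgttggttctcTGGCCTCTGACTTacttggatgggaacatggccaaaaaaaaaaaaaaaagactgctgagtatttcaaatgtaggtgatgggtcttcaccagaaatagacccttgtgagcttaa
Slc25a20 (chr9:108661886-108662185, plus strand): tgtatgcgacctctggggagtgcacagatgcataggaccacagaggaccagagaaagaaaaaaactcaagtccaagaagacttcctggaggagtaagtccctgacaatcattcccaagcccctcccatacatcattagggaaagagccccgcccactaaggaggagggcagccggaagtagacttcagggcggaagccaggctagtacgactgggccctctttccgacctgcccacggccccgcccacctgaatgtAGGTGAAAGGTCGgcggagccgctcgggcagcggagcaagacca
Echs1 (chr7:140116372-140116671, minus strand): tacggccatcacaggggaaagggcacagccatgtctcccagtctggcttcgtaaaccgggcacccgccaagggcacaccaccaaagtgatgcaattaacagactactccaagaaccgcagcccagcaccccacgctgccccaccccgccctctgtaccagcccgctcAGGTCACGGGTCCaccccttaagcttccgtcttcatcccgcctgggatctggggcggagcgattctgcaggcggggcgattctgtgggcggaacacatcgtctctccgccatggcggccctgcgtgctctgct
Etfa (chr9:55512194-55512493, minus strand): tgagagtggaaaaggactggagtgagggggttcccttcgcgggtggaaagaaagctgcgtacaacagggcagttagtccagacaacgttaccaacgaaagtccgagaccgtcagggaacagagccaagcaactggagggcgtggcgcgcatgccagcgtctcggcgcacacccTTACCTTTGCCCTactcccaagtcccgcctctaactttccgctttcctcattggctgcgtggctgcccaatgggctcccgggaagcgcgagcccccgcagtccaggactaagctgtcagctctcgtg
The first base of the match lies at -63 from the start in Cd36, -83 in Echs1, -77 in Etfa and 7 in Slc25a20.

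Hadha and Hadhb, the trifunctional protein pair whose values are given above, start 273 bases apart on opposite strands of chromosome 5, so their windows share 228 bases. The window of Hadhb is shown because both genes rose from E18.5 to the adult and it holds most of the window of its partner; capitals mark the shared stretch, chr5:30155003-30155230 in GRCm38.p6.
Hadhb (chr5:30155003-30155302, plus strand): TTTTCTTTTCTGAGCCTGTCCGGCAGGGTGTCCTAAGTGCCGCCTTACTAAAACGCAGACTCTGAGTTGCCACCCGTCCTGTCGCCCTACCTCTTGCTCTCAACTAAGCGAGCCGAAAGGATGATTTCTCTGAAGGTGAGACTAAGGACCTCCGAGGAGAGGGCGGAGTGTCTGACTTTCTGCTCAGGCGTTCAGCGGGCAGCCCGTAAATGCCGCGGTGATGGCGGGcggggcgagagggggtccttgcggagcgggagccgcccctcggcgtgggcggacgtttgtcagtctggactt
Their class-by-age changes were 0.65 ± 0.15 (SE) for Hadha and 0.44 ± 0.13 (SE) for Hadhb, of which the first was called and the second was not (limma adjusted p = 0.0321 and 0.11). The difference between the 2 genes was not tested.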

How the data were processed

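RNA of 18 libraries of sorted mouse cardiomyocytes was analysed, 3 in each of 6 groups set by the labels. The deposited table holds log2 values per gene, made by the authors with STAR and limma on build mm9 per the submitters' processing notes. For the counter, annotation and strand setting the sources used here give nothing. Each value equals the log2 of a whole count plus 0.5, times a factor of its library. Whole counts came back for 100% of values within 0.001, with totals of 14833334 to 22690952 per library. These totals limit precision for members with few counts (Ces1d before adulthood, Cpt1b).

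From the deposited log2 values, limma 3.58.1 (R 4.3.3) fitted group means over all 18 libraries and 12048 genes with an intensity trend, 12 residual degrees of freedom and 11 comparisons, each adjusted by Benjamini-Hochberg at 0.05. A separate limma fit of group means with a trend was tried on simulated counts, for the P7 class comparison alone and with total-count scaling. The deposited scaling, the interaction tests and the replicate blocks were not simulated. Of the identifiers, 11927 matched a gene symbol and 121 did not, and 0 sample columns were left unused. Promoter sequences are from RefSeq (GRCm38.p6). Transcript lengths, exon overlaps and 50-base words are from the GENCODE mouse annotation. None of these entered the fits.

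Replicate numbers in the labels are shared by the 2 classes. Same-numbered libraries deviated together at P7 (correlations 0.182, 0.191 and 0.236) and in the adult (0.261, 0.264 and 0.327). At E18.5 the correlations of same-numbered libraries were also positive, but weaker (0.088, 0.054 and 0.158). The main fit of group means did not pair them, and p-values come from that unpaired fit unless another setting is named. Pairing entered only through the alternatives with a replicate block, including a block limited to P7 and adult libraries.

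The members and gene lists were chosen with earlier results of these data known. Library values were given for members called in a class comparison, the member of each step with the largest adult-to-E18.5 change, Cpt1a, Cpt1b and the lowest member. Other genes were named from 4 lists, up to 3 per list and direction by adjusted p in adult against E18.5, with Ppara, Esrra, Ppargc1a and Pparg always; 1 gene that this rule names is not reported here. Alternatives changed the scaling, the offset, the weights, the trend, the filter, the libraries fitted and the replicate block, 30 settings in all.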

Additional observations from a re-analysis of the deposited data

Results flagged for a closer look

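The interaction test from E18.5 to P7 called 0.232% of all genes higher and 2.1% lower (limma, adjusted over all genes). In 8 genes of the members and the 4 lists the difference between nuclear classes changed by this test. Among the members these were Vldlr at 0.67, Crat at 0.73 and Hadha at 0.65 on the log2 scale, all toward higher values in binucleated cells. Crat lost the call in 22 of 30 alternatives, Hadha in 13, and Vldlr in 1, the fit on the 4 groups of the comparison alone.

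Decr2 at 0.68 and Plin5 at 1.27 moved the same way, and lost the call in 17 and 7 of the 30 alternatives, both of them with the replicate block at P7 and in the adult.

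Fabp4 at -2.58, Fabp5 at -3.05 and Lrp1 at -3.27 moved toward lower values in binucleated cells, with limma adjusted p of 0.016, 0.014 and 0.0354. Lrp1, a lipoprotein receptor, was named after its values were seen. Fibroblast, endothelial and leukocyte marker sums moved the same way, being higher in 2N cells at E18.5 and not at P7, and their part in these 3 genes was not tested.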

How the results depend on the processing

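Over 30 settings, 11485 of 12062 comparisons of single members kept their direction and their side of the threshold, 207 changed sign with no call on either side, 204 lost the call, 158 gained it and 8 reversed. The other named genes kept both in 3982 of 4097. The reversals from P7 to the adult under quantile normalization were Acadl at -0.19, Hadha at -0.0038, Acaa2 at -0.26 and Got2 at -0.013 in 1N, and Slc25a20 at -0.011, Acadvl at -0.049, Hadha at -0.088 and Acaa2 at -0.29 in 2N cells. Got2 also reversed from E18.5 to the adult in 1N cells, at -0.10, and under total-count scaling Acaa1a reversed from P7 to the adult in 1N cells, at -0.063. The cause was not tested.

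Against 1 member called between classes at P7 (0.0664% of all genes called higher), median-ratio scaling gave 2, an offset of 2 counts 2 and voom weights 4. Array weights gave 26 (3.64%), the 2 groups alone 4, the replicate block within each age 2 and a random replicate block 5. Against 3 called for the change of the class difference from E18.5 to P7 (0.232% of all genes called higher), total-count scaling, quantile normalization and the fit with no trend each gave 1. Array weights gave 20 (3.1%), the groups alone 0, the replicate block at P7 and in the adult 1 and a random block 6. Without E18.5 2N replicate 1 these 2 shares of all genes were 0.822% and 1.05%. Shares of all genes called were not counted for the other alternatives. The replicate block moved no other count by over 1.5 times. From P7 to the adult, quantile normalization left 17 calls of 30 in 1N and 14 of 22 in 2N cells, and array weights gave 1 in place of 0 for the change of the class difference. Without 1 library at a time, calls ranged from 0 to 0 at E18.5, 1 to 13 at P7 and 0 to 0 in the adult between classes. For P7 against E18.5 they ranged from 24 to 34 (1N) and 34 to 37 (2N), for adult against P7 from 25 to 33 and 19 to 27, for adult against E18.5 from 35 to 36 and 36 to 37, and for the class difference from 1 to 12 and 0 to 1. Members with 2N below 1N without overlap at E18.5 went from 10 (7.1% of all genes) to 19 (15.3%) without E18.5 2N replicate 1, a count chosen after seeing the data. With 3 libraries a group, class differences in the adult are limited to the intervals given.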

Other observations

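The regulators of fatty acid genes were also read by step. Of 23, 3 were called higher and 2 lower at P7 than at E18.5 in 1N cells (limma), namely Esrra, Nrip1, Lpin1, Klf15 and Prkaa2, while 10 were higher and 1 lower in adult than in P7 1N cells. Of all genes 10.7% were called higher and 7.84% lower in the first of these comparisons, and 19.1% and 22.3% in the second. In 2N cells the counts were 4 and 2 to P7 (18.2% and 17.7% of all genes), and 8 and 1 after it (17.3% and 19.7%). None of the 23 was called between nuclear classes at any age, with median log2 fold changes of -0.05 at E18.5, 0.21 at P7 and 0.07 in the adult.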
